A study of Homo sapiens with 12 samples.

Results

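Cytosolic aminoacyl-tRNA synthetases load amino acids onto their transfer RNAs (tRNAs) for protein synthesis outside the mitochondria. HARS1, the histidyl-tRNA synthetase, was examined here together with AARS1, CARS1, EPRS1, GARS1, IARS1, KARS1, LARS1 and MARS1, which are 9 genes in all. They were matched by gene symbol, or by the older symbol without the final 1, among the probes of an expression array. A named probe was found for 8 of the 9 genes, with 1 probe for each, out of 7331 named genes and 16381 probes in total, and CARS1 was not analysed here. HARS1 was chosen because its signal was known to be higher with both siRNAs, so its values against the control are given as a description, with no test.

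The samples were HT29 cells, an established human colorectal cancer line, reverse-transfected with siRNA at 5 nM and harvested after 24 h. Each of 3 groups had 4 arrays, which the sources describe as independent biological replicates. Cells of the control group received the non-targeting siRNA siLUC, directed at luciferase, and the other groups received siLRH-1 #1 or siLRH-1 #2, distinct siRNAs against the nuclear receptor LRH-1. All groups therefore carried an siRNA, no untransfected cells were among the samples, and a single cell line was used. NR5A2, the gene that encodes LRH-1, was not analysed here, and knockdown could not be checked in these values. The values are log2 probe signals on Illumina HumanHT-12 v4 BeadChips, and all array medians lay between 6.56 and 6.57. Of 11 listed epithelial or colonic markers, 9 were measured. By their brightest probes, the mean log2 signals ran from 6.92 (CDX2) and 7.46 (CEACAM5) to 13.44 (EPCAM), all above the array medians. The other KRT20 probe was below these medians at 6.41. The only measured gene of 6 markers of other cell types, the collagen gene COL1A2, was below them at 5.98. CEACAM5 was the only 1 of the 9 called, and it fell by 0.22 on the log2 scale with either siRNA (limma, adjusted p = 0.0376 and 0.0352), beside 7.00% of all probes called in each comparison. In siLRH-1 #2 replicate 2, 50 probes lay 0.5 or more above every other array, against at most 1 probe in any other array.

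As background, each synthetase recognises its amino acid and tRNA, activates the amino acid with ATP and transfers it to the end of the tRNA. In mammals EPRS1, IARS1, KARS1, LARS1 and MARS1 belong to a large multi-synthetase complex, whereas HARS1, AARS1, CARS1 and GARS1 act outside it. Most mitochondrial synthetases are encoded by separate nuclear genes, such as HARS2 for histidine, but GARS1 and KARS1 each make an enzyme for both compartments. Many cytosolic synthetase genes are known targets of ATF4, the transcription factor of the amino acid response, which is induced when amino acids run short or the endoplasmic reticulum is stressed.

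HARS1 and HARS2 are neighbours that are transcribed away from each other. In the RefSeq promoter table (GRCh38.p14), the start of HARS1 was at position 140691370 of chromosome 5 on the minus strand and that of HARS2 at 140691455 on the plus strand, with 84 bases between them. KARS1 had the same arrangement with TERF2IP on chromosome 16, with 107 bases between the starts. Both intervals are shown because the same short stretch lies in front of 2 genes in each of them. They are read 5′ to 3′ on the strand of HARS1 (chr5:140691371-140691454) and of KARS1 (chr16:75647666-75647772), and capitals mark CCGGAAG, the core recognised by ETS factors, on either strand.
HARS1 to HARS2: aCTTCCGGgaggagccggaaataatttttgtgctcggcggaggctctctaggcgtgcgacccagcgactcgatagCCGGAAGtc
KARS1 to TERF2IP: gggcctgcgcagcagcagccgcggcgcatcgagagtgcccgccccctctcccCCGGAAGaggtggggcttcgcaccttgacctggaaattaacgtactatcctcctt
The HARS1 interval held 2 such matches on opposite strands, and its GC content was 59.5%. Windows of 250 bases before to 50 bases after the start were compared over 35116 annotated starts, and 10.3% of them held CCGGAAG on either strand. Among the members, 8 of 9 had 10 windows in the table, since CARS1 and GARS1 each had 2 annotated starts, and 5 of the 10 windows held the core (HARS1, CARS1, KARS1 and both overlapping windows of GARS1). The core TGATGNAA of the ATF4 type was found in 5 of the 10 windows, 1 each of AARS1, CARS1, GARS1, IARS1 and MARS1, against 3.6% of all windows. It was not found in the windows of HARS1, EPRS1 and KARS1, and LARS1 had no window. The core CAAGGNC of the LRH-1 type was found only in the window of AARS1 among the members, against 16.3% of all windows. These matches describe letters in the windows and do not show that a factor is bound.

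The 5 stretches with the ATF4-type core are printed 5′ to 3′ on the strand of the gene, with the core in capitals as read on that strand, because the window of HARS1 lacked this core and theirs held it. They lie at chr16:70289676-70289703 (minus strand) for AARS1, chr11:3057408-3057435 (minus strand) for CARS1, chr7:30594835-30594862 (plus strand) for GARS1, chr9:92293693-92293720 (minus strand) for IARS1 and chr12:57488054-57488081 (plus strand) for MARS1, all on GRCh38.p14.
AARS1: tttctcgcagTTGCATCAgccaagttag
CARS1: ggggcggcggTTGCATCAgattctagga
GARS1: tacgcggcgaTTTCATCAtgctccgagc
IARS1: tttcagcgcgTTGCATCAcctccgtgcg
MARS1: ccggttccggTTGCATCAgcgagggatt
In all 5, the capitals are the reverse complement of the core as written above. The first base of the core lay 2 bases before the start of CARS1, 4 before that of MARS1, 13 before that of IARS1, 33 before the second of the 2 annotated starts of GARS1 (position 30594878) and 187 before that of AARS1.

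HARS1 signal was higher with both siRNAs than with siLUC. The 4 siLUC arrays read 9.60, 9.64, 9.69 and 9.59 (log2 signal, replicates 1 to 4). With siLRH-1 #1 the arrays read 10.19, 10.34, 10.17 and 10.26, and with siLRH-1 #2 they read 10.19, 10.30, 10.31 and 10.20. All 8 arrays of the LRH-1 siRNAs lay above all 4 siLUC arrays, and the arrays of both LRH-1 siRNAs overlapped each other. The group means were 9.63 ± 0.04 (SD, n = 4), 10.24 ± 0.08 and 10.25 ± 0.06. The log2 change was 0.62 with each siRNA (SE 0.06), or 1.53-fold for siLRH-1 #1 and 1.54-fold for its counterpart. Without siLRH-1 #2 replicate 2, the change of HARS1 with siLRH-1 #2 was 0.60. Both changes stand against the same siLUC arrays and are not independent of each other. In either comparison the change of HARS1 was at percentile 99.9 of the changes of all probes. In bulk RNA, a higher level in every cell and a larger share of cells with a high level cannot be told apart.

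HARS1 differed by -0.00 on the log2 scale between siLRH-1 #1 and siLRH-1 #2 (SE 0.06, 95% interval -0.13 to 0.12), and as a fold this interval ran from 0.916 to 1.09. This is also a description, because a gene chosen for being high with both siRNAs is likely to differ little between them.

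**Figure D1:**
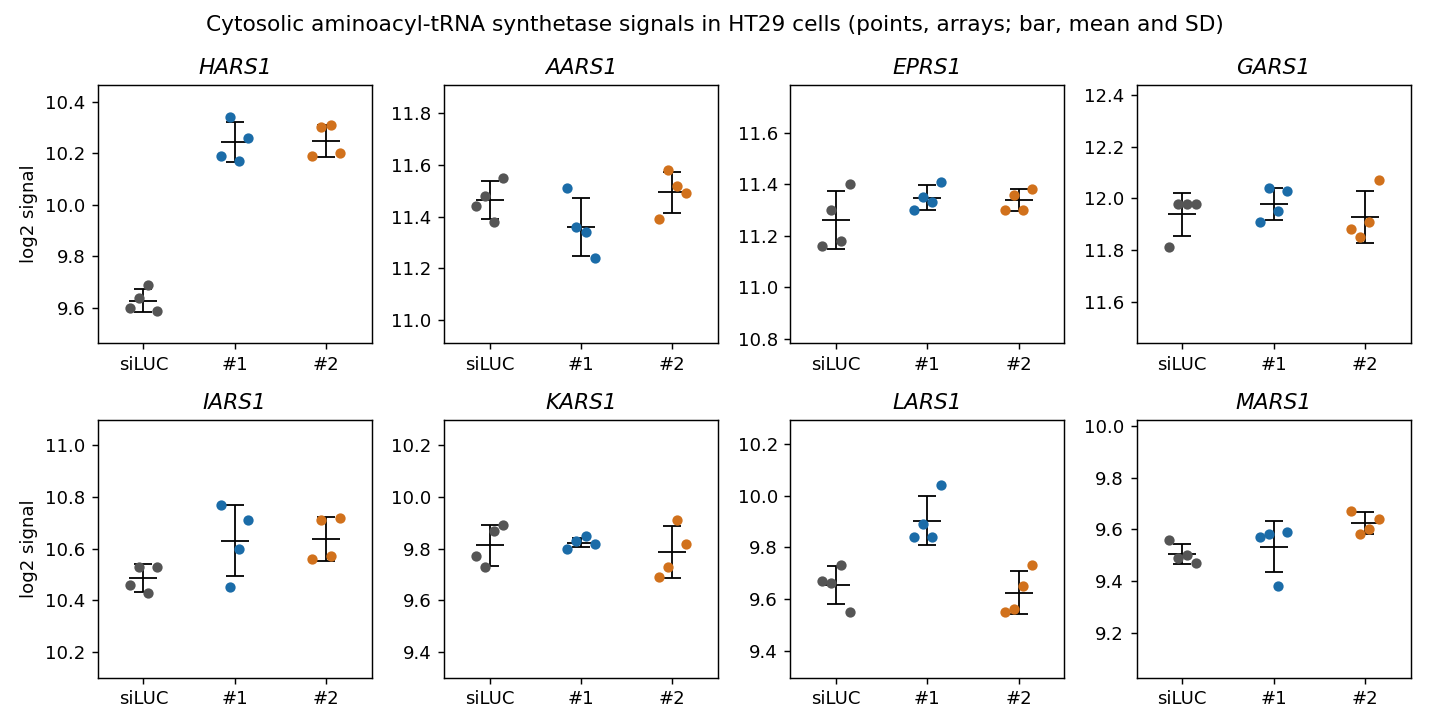
Log2 signal (y axis) of each of the 8 measured cytosolic synthetase genes in the 4 arrays of siLUC, siLRH-1 #1 and siLRH-1 #2 (x axis), with points for arrays and bars for the mean and SD. The y axes span the same range but start at different levels. HARS1 arrays lay at 9.59 to 9.69 with siLUC and at 10.17 to 10.34 with the LRH-1 siRNAs, and LARS1 was higher with siLRH-1 #1 only.

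HARS2 makes the mitochondrial histidyl-tRNA synthetase from the other side of the shared interval. Its siLUC arrays read 10.21, 10.25, 10.31 and 10.32. With siLRH-1 #1 they read 10.09, 10.13, 10.33 and 10.16, and with siLRH-1 #2 they read 10.17, 10.07, 10.21 and 10.18. The HARS2 arrays of neither LRH-1 siRNA lay wholly below those of siLUC. For siLRH-1 #2 the highest array equalled the lowest siLUC array at 2 decimals. The log2 changes of HARS2 were -0.09 (SE 0.06, limma, adjusted p = 0.477) and -0.11 (SE 0.06, limma, adjusted p = 0.335), so neither passed the threshold of 0.05. The difference between the changes of HARS1 and HARS2 was not tested, because HARS1 was chosen by its change. TERF2IP, which shares the interval of KARS1, was not analysed here. Of the other genes closest to HARS1 on the chromosome, only IK and CD14 were measured. IK, a spliceosome component, had log2 changes of -0.02 and 0.01 (limma, adjusted p = 0.896 and 0.977). CD14 was dim (mean log2 signal 6.27), with log2 changes of 0.01 and 0.02 (limma, adjusted p = 0.95 and 0.897). Both genes were looked up after the values of HARS1 were known.

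Of the 7 measured members besides HARS1, 1 rose with siLRH-1 #1 (LARS1), none fell, and 6 did not pass the test, beside 7.00% of all probes called in this comparison (3.22% higher and 3.78% lower). With siLRH-1 #2 the count was 0 of 7, again beside 7.00% of all probes (3.25% higher and 3.74% lower). At an unadjusted p under 0.05 in the same limma fit, 2 of the 7 passed with siLRH-1 #1 and 1 of the 7 passed with siLRH-1 #2. The share of all probes at this unadjusted level was not counted, here or for the lists below. It is no smaller than the 7.00% called after adjustment. The median log2 change over these 7 genes was 0.04 and 0.03, and over all probes it was 7e-04 and 0.0012. The SE of a single gene was 0.06 to 0.07, and the difference of the medians was not tested. With siLRH-1 #2 the 95% intervals of the 7 changes all lay within -0.16 to 0.30. With siLRH-1 #1 they lay within -0.24 to 0.38.

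LARS1, the leucyl-tRNA synthetase of the multi-synthetase complex and a known leucine sensor for the growth kinase mTORC1, differed between the siRNAs. Its siLUC arrays read 9.67, 9.66, 9.73 and 9.55. With siLRH-1 #1 the arrays read 9.84, 9.89, 9.84 and 10.04, and with siLRH-1 #2 they read 9.55, 9.56, 9.65 and 9.73. All 4 arrays of siLRH-1 #1 were above all arrays of the other groups, as were those of 6.62% of all probes against siLUC and 7.61% against siLRH-1 #2, while the siLRH-1 #2 arrays covered the range of the siLUC arrays. LARS1 rose 1.19-fold with siLRH-1 #1 (log2 change 0.25, SE 0.06, limma, adjusted p = 0.0189). Its change with siLRH-1 #2 was -0.03 (SE 0.06, limma, adjusted p = 0.869). In the direct comparison LARS1 was 1.21-fold higher with siLRH-1 #1 (log2 difference 0.28, 95% interval 0.15 to 0.41, limma, adjusted p = 0.00571), and it was the only member of 8 called there, beside 9.94% of all probes (4.82% higher and 5.13% lower). The call against siLUC rested on single arrays: without siLUC replicate 4 the log2 change was 0.22 (limma, adjusted p = 0.0805), and without siLRH-1 #1 replicate 4 it was 0.20 (limma, adjusted p = 0.0991). The direct difference between the siRNAs was called whichever array was left out (limma, adjusted p 0.0013 to 0.0349 over all alternatives).

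The other members of the multi-synthetase complex did not pass the test with either siRNA. IARS1, the isoleucyl-tRNA synthetase, read 10.46, 10.53, 10.43 and 10.53 with siLUC, 10.77, 10.45, 10.60 and 10.71 with siLRH-1 #1, and 10.56, 10.71, 10.57 and 10.72 with siLRH-1 #2. Its log2 changes were 0.14 and 0.15 (SE 0.07, limma, adjusted p = 0.262 and 0.221). All 4 IARS1 arrays of siLRH-1 #2 lay above the siLUC arrays, which was also so for 6.40% of all probes, whereas siLRH-1 #1 replicate 2 fell inside the siLUC range. MARS1, the methionyl-tRNA synthetase, read 9.56, 9.49, 9.50 and 9.47 with siLUC, 9.57, 9.58, 9.38 and 9.59 with siLRH-1 #1, and 9.67, 9.58, 9.60 and 9.64 with siLRH-1 #2. The siLRH-1 #2 arrays of MARS1 were also above every siLUC array, and its log2 changes were 0.03 and 0.12 (SE 0.06, limma, adjusted p = 0.88 and 0.281). EPRS1, which joins the glutamyl- and prolyl-tRNA synthetases in a single protein, read 11.16, 11.30, 11.18 and 11.40 with siLUC, 11.30, 11.35, 11.33 and 11.41 with siLRH-1 #1, and 11.30, 11.36, 11.30 and 11.38 with siLRH-1 #2. Its groups overlapped, and the log2 changes were 0.09 and 0.08 (SE 0.06, limma, adjusted p = 0.504 and 0.548). KARS1, the lysyl-tRNA synthetase, read 9.77, 9.73, 9.87 and 9.89 with siLUC, 9.80, 9.83, 9.85 and 9.82 with siLRH-1 #1, and 9.69, 9.73, 9.91 and 9.82 with siLRH-1 #2. KARS1 had log2 changes of 0.01 and -0.02 (SE 0.06, limma, adjusted p = 0.955 and 0.886), and its arrays overlapped in all 3 groups.

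AARS1 and GARS1 act outside the complex, as HARS1 does, and did not pass the test with either siRNA. AARS1, the alanyl-tRNA synthetase, read 11.44, 11.48, 11.38 and 11.55 with siLUC, 11.51, 11.36, 11.34 and 11.24 with siLRH-1 #1, and 11.39, 11.58, 11.52 and 11.49 with siLRH-1 #2. Its log2 changes were -0.10 and 0.03 (SE 0.07, limma, adjusted p = 0.451 and 0.869), and its direct difference between the siRNAs was -0.13 (limma, adjusted p = 0.254). GARS1, the glycyl-tRNA synthetase, read 11.81, 11.98, 11.98 and 11.98 with siLUC, 11.91, 12.04, 11.95 and 12.03 with siLRH-1 #1, and 11.88, 11.85, 11.91 and 12.07 with siLRH-1 #2. Its log2 changes were 0.04 and -0.01 (limma, adjusted p = 0.816 and 0.954). Neither gene separated any pair of groups.

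**Figure D2:**
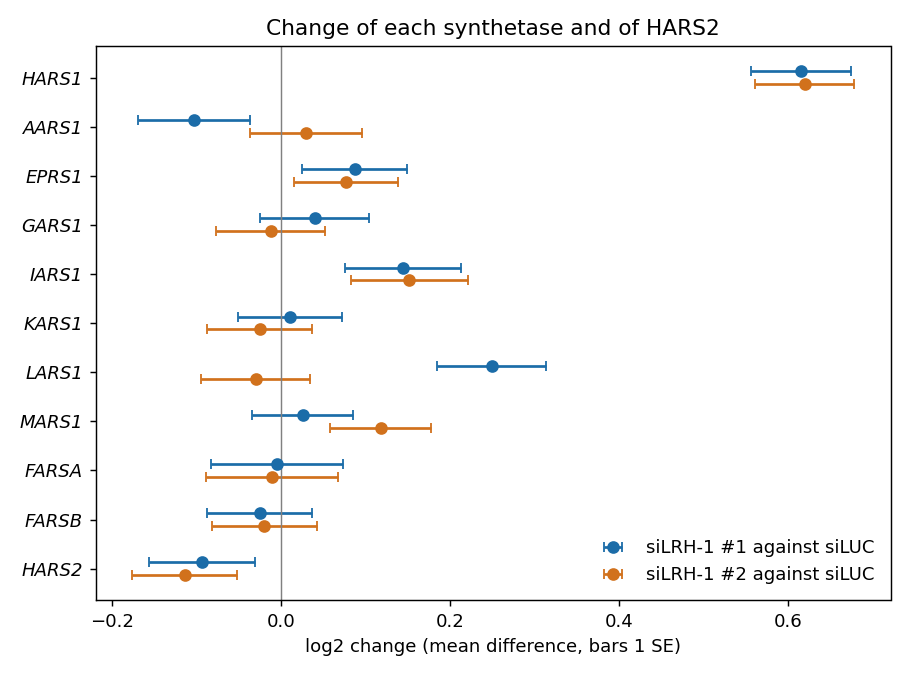
Log2 change against siLUC (x axis, difference of mean log2 signals of 4 arrays each, bars 1 SE) for the 8 measured members, for FARSA and FARSB, and for HARS2 (y axis), with siLRH-1 #1 in blue and siLRH-1 #2 in orange. HARS1 lies at 0.62 for both siRNAs, LARS1 at 0.25 for siLRH-1 #1, and HARS2 at -0.09 and -0.11.

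Genes whose signals followed those of HARS1 most closely over the 12 arrays were taken from the 7330 other named genes, with 1 probe each. The highest Pearson r were those of DPH3, which acts in the synthesis of diphthamide on elongation factor 2 (r = 0.977), the histone deacetylase HDAC3 (0.976), the protein glucosyltransferase POGLUT3 (0.963), TMEM250 (0.96) and ERO1A, an oxidase of the endoplasmic reticulum (0.959). The lowest were those of the galactosyltransferase B4GALT3 (-0.972), WBP1L (-0.963), the cell cycle phosphatase CDC25A (-0.955), UTP4, which acts in ribosome biogenesis (-0.941), and VMA21, which helps to assemble the proton pump of acidic compartments (-0.941). The 12 points fall into 3 groups, and HARS1 was high in 2 of them, so r here mostly describes the step from siLUC to the LRH-1 siRNAs. HDAC3, for example, had a mean of 9.09 in the siLUC arrays, of 9.60 in those of siLRH-1 #1 and of 9.58 in those of siLRH-1 #2. Of the members, IARS1 had the highest r with HARS1 (0.553) and AARS1 the lowest (-0.181). After the group means were taken out, r over the same arrays was -0.479 for IARS1, the lowest of the members, and 0.299 for LARS1, the highest.

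**Figure D3:**
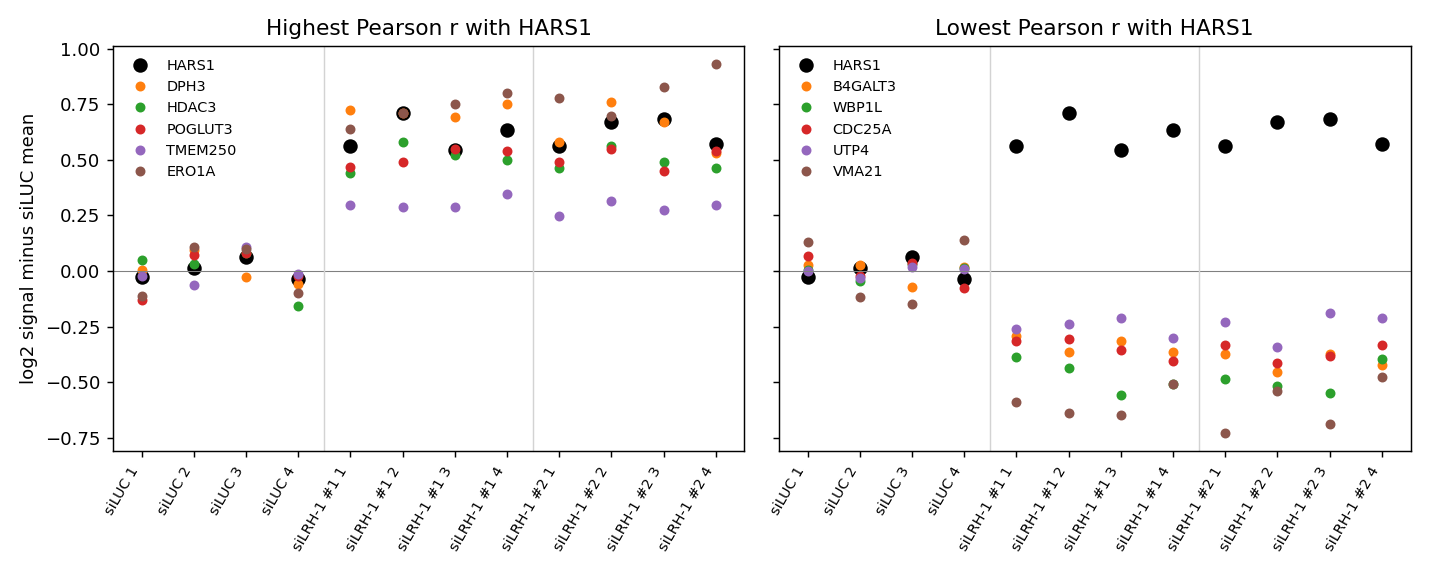
Log2 signal minus the mean of the siLUC arrays (y axis) in each of the 12 arrays (x axis) for HARS1 (large black points) and for the 5 genes with the highest (left) and the 5 with the lowest (right) Pearson r with it. HARS1 stands apart between siLUC and the LRH-1 siRNAs and not between siLRH-1 #1 and siLRH-1 #2, and the genes shown were picked for this pattern.

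Of 15 other genes of cytosolic synthetases and their scaffolds, 2 were measured. FARSA and FARSB, the subunits of the phenylalanyl-tRNA synthetase, differed from siLUC by -0.00 and -0.02 on the log2 scale under siLRH-1 #1, and under siLRH-1 #2 by -0.01 and -0.02 (limma, adjusted p 0.896 to 0.988). Neither was called, beside 7.00% of all probes in each comparison, and 0 of the 2 had an unadjusted p under 0.05.

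Mitochondrial synthetases and the tRNA enzymes listed with them were measured for 10 of 21 genes. With siLRH-1 #1, 2 of the 10 fell, none rose and 8 did not pass the test, beside 3.78% of all probes lower, and the median log2 change was -0.06. MTFMT, which formylates the initiator methionyl-tRNA of mitochondria, read 9.41, 9.39, 9.40 and 9.39 with siLUC, 9.07, 9.11, 8.98 and 9.04 with siLRH-1 #1, and 9.64, 9.26, 9.30 and 9.34 with siLRH-1 #2. It fell by 0.35 on the log2 scale with siLRH-1 #1 (SE 0.07, limma, adjusted p = 0.00277), with no overlap of arrays, and its change with siLRH-1 #2 was -0.02 (limma, adjusted p = 0.941). The direct difference of MTFMT was -0.33 (limma, adjusted p = 0.00286). FARS2, the mitochondrial phenylalanyl-tRNA synthetase, read 9.03, 9.02, 8.94 and 9.01 with siLUC, 8.81, 8.83, 8.86 and 8.68 with siLRH-1 #1, and 8.77, 8.91, 8.91 and 8.91 with siLRH-1 #2. All 8 arrays of the LRH-1 siRNAs lay below the siLUC arrays. The share of all probes with arrays separated downward in this way was not counted, here or for MTFMT. FARS2 fell by 0.20 with siLRH-1 #1 (SE 0.06, limma, adjusted p = 0.0391), and its change with siLRH-1 #2 was -0.12 (limma, adjusted p = 0.253). The FARS2 call was lost when replicate 1, 2 or 4 of siLUC, or replicate 1, 2 or 4 of siLRH-1 #1, was left out, with adjusted p from 0.0541 without siLRH-1 #1 replicate 2 to 0.167 without siLRH-1 #1 replicate 4. With siLRH-1 #2, 0 of the 10 were called (2 at an unadjusted p under 0.05), beside 7.00% of all probes, and the median was -0.05.

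Of 36 genes of tRNA maturation and modification, 11 were measured. Of these, 0 were called with either siRNA, beside 7.00% of all probes in each comparison, with 1 and 2 genes at an unadjusted p under 0.05 in limma. THG1L, which adds the extra guanine by which HARS1 recognises the histidine tRNA, was dim (mean log2 signal 6.04), with log2 changes of -0.03 and -0.10. The largest change in size in this list was that of ADAT1, a tRNA deaminase, at 0.23 with siLRH-1 #2 (limma, adjusted p = 0.0724). Of 13 listed amino acid transporter genes, 0 had a probe named in the annotation used, in which 6621 of all 16381 probes had no gene symbol. These transporters were therefore not analysed here, and unnamed probes may cover some of them.

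The amino acid response was read through 14 of 26 listed genes, those with a probe named in the annotation used. The other listed genes may have unnamed probes and are not part of the counts and medians below. With siLRH-1 #1, 1 of the 14 fell (DDIT4), and with siLRH-1 #2, 1 rose (DDIT3) and 1 fell (DDIT4). In each comparison 7.00% of all probes were called, which is near 1 in 14. The list's median log2 changes were 0.01 and 0.02. ATF4 itself had log2 changes of -0.11 and -0.14 by its brightest probe (limma, adjusted p = 0.471 and 0.308), and none of its 3 probes was called. ASNS, the asparagine synthetase and a well known ATF4 target, had log2 changes of 0.15 and 0.02 by its brightest probe (limma, adjusted p = 0.154 and 0.881). Its other probe gave 0.14 and 0.17 (limma, adjusted p = 0.295 and 0.191). All siLRH-1 #2 arrays of that probe were above the siLUC arrays, as were those of 6.40% of all probes. DDIT3, a transcription factor of the stress response also called CHOP, read 8.52, 8.46, 8.58 and 8.60 with siLUC, 8.41, 8.71, 8.31 and 8.44 with siLRH-1 #1, and 8.85, 8.84, 8.79 and 8.91 with siLRH-1 #2. DDIT3 rose 1.24-fold with siLRH-1 #2 (SE 0.07, limma, adjusted p = 0.0101). Under siLRH-1 #1 its log2 change was -0.08 (limma, adjusted p = 0.649). The siLRH-1 #2 arrays of DDIT3 lay above all other arrays, and 6.40% of all probes separated in this way against siLUC. The direct difference of DDIT3 was -0.38 (limma, adjusted p = 0.000898). Without moderation of the spread DDIT3 was not called with siLRH-1 #2 (adjusted p = 0.0542).

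DDIT4, an inhibitor of mTORC1, read 7.22, 7.16, 7.30 and 7.31 with siLUC, 6.79, 7.06, 7.00 and 7.09 with siLRH-1 #1, and 7.11, 6.81, 6.95 and 6.97 with siLRH-1 #2. It fell by 0.27 and 0.29 on the log2 scale (SE 0.07, limma, adjusted p = 0.0294 and 0.0165). All 8 arrays of the LRH-1 siRNAs lay below the siLUC arrays, but neither call held without moderation (adjusted p = 0.105 and 0.0742). The share of all probes with arrays separated downward in this way was not counted. With siLRH-1 #1 the DDIT4 call was lost when replicate 1, 3 or 4 of siLUC, or replicate 1 or 3 of siLRH-1 #1, was left out (limma, adjusted p 0.0551 to 0.117). With siLRH-1 #2 it was lost when replicate 3 or 4 of siLUC, or replicate 2 of siLRH-1 #2, was left out (limma, adjusted p 0.0519 to 0.0611). EIF2S1, the alpha subunit of the initiation factor eIF2, differed between the siRNAs by -0.34 (limma, adjusted p = 0.00426), with arrays at 7.96, 7.49, 7.74 and 7.72 for siLRH-1 #1 and at 8.17, 8.05, 8.00 and 8.08 for siLRH-1 #2. Against siLUC its log2 changes of -0.20 and 0.14 did not pass the test (limma, adjusted p = 0.134 and 0.325), although the change with siLRH-1 #1 did without replicate 1 of that group (-0.28, limma, adjusted p = 0.0217).

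**Figure D4:**
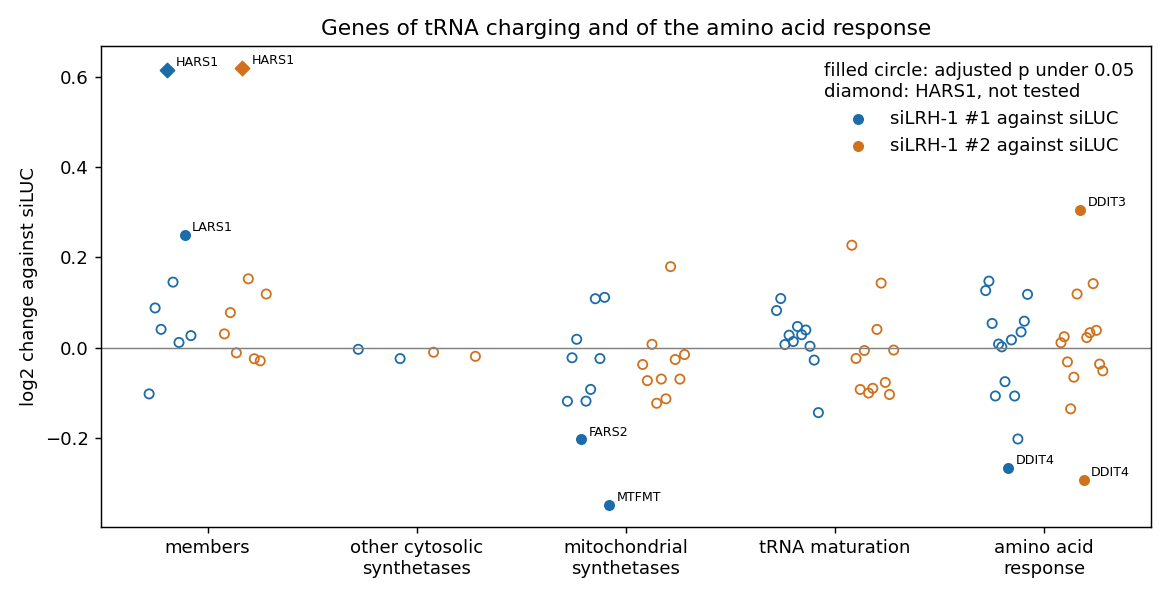
Log2 change against siLUC (y axis) of every measured gene in the lists of cytosolic, mitochondrial, tRNA maturation and amino acid response genes (x axis), with siLRH-1 #1 in blue and siLRH-1 #2 in orange. Filled circles mark adjusted p under 0.05 and diamonds mark HARS1, which was not tested, and apart from HARS1 the changes lie between -0.35 (MTFMT) and 0.31 (DDIT3).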

How the data were processed

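RNA of 12 HT29 cultures in 3 groups of 4 was profiled on Illumina HumanHT-12 v4 BeadChips. The authors processed the images in GenomeStudio, removed probes with a detection p over 0.05 in every sample, took log2 and applied quantile normalization, so the deposited values are log2 signals per probe. The submitters' notes name GenomeStudio and Partek, with versions not given in the sources used here. Among the 16381 probes, 9756 had 1 gene symbol, 4 several and 6621 none in the annotation used. A gene was counted as measured where a probe with 1 symbol named it, so genes not measured may still have unnamed probes. A further table had 24 columns that the labels do not tie to a sample, and it was not used. Positions and sequences are from RefSeq (GRCh38.p14), with the build of the array likewise not given in the sources used here.

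Log2 changes were fitted with limma 3.58.1 in R 4.3.3 (a mean per group over 12 arrays, contrasts, eBayes with 9 residual and 12.1 prior degrees of freedom). Tests were two-sided, and p-values were adjusted by Benjamini and Hochberg's method over the whole table. The threshold for a call was an adjusted p of 0.05, and limma gave every adjusted p. SE and intervals (95%) come from the same fit. For a gene with several probes the brightest was used. Named were the members, the called genes of each related list, the 5 genes with the highest and the 5 with the lowest Pearson r with HARS1, and divergent neighbours of the members. Other genes named from the lists (ATF4, ASNS, FARSA, FARSB, THG1L, ADAT1, IARS2), IK and CD14 were chosen after their values were seen. The members and lists were chosen with earlier results of these data known. The number of arrays limits the precision. The fit was tested on simulated data. Alternatives were another normalization, a filter on dim probes, a trended and robust prior, no moderation, all probes of a gene, a replicate block, and leaving out each array.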

Additional observations from a re-analysis of the deposited data

Results flagged for a closer look

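In 9 of 135 groups of 4 arrays, 1 array lay far from the other 3 by Dixon's criterion, and chance alone gives about 5% of groups. Among the members these were GARS1 in siLUC replicate 1, at 11.81 against 11.98 in each of the other siLUC arrays, and MARS1 in siLRH-1 #1 replicate 3, at 9.38 against 9.57 to 9.59. Among mitochondrial synthetases, FARS2 read 8.77 in siLRH-1 #2 replicate 1 against 8.91 in the others, and IARS2 read 11.51 in siLRH-1 #1 replicate 2 against 11.63 to 11.65. Among genes of tRNA modification, METTL1 read 10.16 in siLRH-1 #2 replicate 4 against 10.23 to 10.24, and ADAT2 read 6.20 in siLRH-1 #2 replicate 2 against 6.11 to 6.12. In the amino acid response, ATF4 read 12.17 in siLRH-1 #1 replicate 2 against 12.01 to 12.03, ATF3 read 8.17 in siLRH-1 #2 replicate 2 against 7.92 to 7.93, and GCN1 read 10.45 in siLUC replicate 4 against 10.53 to 10.54. siLRH-1 #2 replicate 2, named here for ADAT2 and ATF3, is the array in which 50 probes lay 0.5 or more above all others.

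Among the members and the related lists, the differences between the siRNAs that passed limma's test, beside 9.94% of all probes, were those of LARS1 (siLRH-1 #1 minus siLRH-1 #2, log2 difference 0.28, adjusted p = 0.00571), MTFMT (-0.33, adjusted p = 0.00286), DDIT3 (-0.38, adjusted p = 0.000898) and EIF2S1 (-0.34, adjusted p = 0.00426). By list, these were 1 of 8 members, 1 of 10 mitochondrial genes and 2 of 14 amino acid response genes. Of the 2 other cytosolic genes and the 11 genes of tRNA maturation, 0 were called. Both siRNAs are meant to target the same receptor, and no cause of these differences was tested.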

How the results depend on the processing

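The change of HARS1 stayed between 0.58 and 0.64 with siLRH-1 #1 and between 0.60 and 0.64 with siLRH-1 #2 over the alternatives run, and its direct difference between the siRNAs stayed between -0.04 and 0.02. Counting HARS1, whose call is fixed by its choice and is no result, 2 members passed the threshold with siLRH-1 #1, and leaving out 1 array gave 1 to 2 (1 without siLUC replicate 4 or siLRH-1 #1 replicate 4). Of the mitochondrial genes, leaving out 1 array gave 1 to 2 calls with siLRH-1 #1 and 1 to 2 in the direct comparison (MARS2 besides MTFMT without siLRH-1 #1 replicate 1). With siLRH-1 #2 there was 1 such call, IARS2, with the trended and robust prior (adjusted p = 0.0424) and with the filter on dim probes (adjusted p = 0.043), in place of 0. Without siLRH-1 #1 replicate 4, 700 probes were called with siLRH-1 #1, in place of 1146. Over all alternatives, single-gene results lost a call 20 times, gained one 6 times and kept their side of the threshold 1648 times, and no called direction was reversed. The cause of these shifts was not tested.

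Replicate numbers did not pair the arrays: same-numbered arrays had correlations of -0.151 to 0.204 in their deviations from the group means, and 0 of 12 arrays correlated best with their own number. With the replicate number as a block, LARS1 was still called (adjusted p = 0.0295 and, between the siRNAs, 0.0101), mitochondrial calls with siLRH-1 #1 went from 2 to 1 because FARS2 was lost (adjusted p = 0.0636), and 1058, 1043 and 1538 probes were called, against 1146, 1146 and 1629. A correction of raw signals and a BeadChip term were not run, since the columns could not be given to samples and no BeadChip was named.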
